A study of Mus musculus with 4 samples.

Results

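Conditional deletion of *Stat3*, which encodes a signalling transcription factor, was examined at embryonic day 11 (E11) by setting 1 library of *Stat3* conditional knockout (*Stat3* cKO) neural progenitors against 1 control (CTL) library, across all genes. In the library labelled *Stat3* cKO, genes of the integrated stress response were lower (23 of 34 by at least 1.5-fold, against 3.66% of all genes) and all 23 genes of the cholesterol pathway list were higher (17 of them by at least 1.5-fold, against 2.18% of all genes). Genes of G2 and mitosis, of fatty acid synthesis and of glycolysis were also higher in most cases, whereas interferon and synaptic genes were lower in most cases. *Stat3* itself differed little, with 7.41 FPKM (sequenced fragments corrected for transcript length and library size) in CTL and 6.74 in the library labelled *Stat3* cKO. Of 21091 listed entries, 12449 averaged 1 FPKM or more across the 4 libraries of the series and were analysed, and 12430 of these had a value above 0 in both E11 libraries and hence a ratio.

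The series holds 4 libraries of mouse embryonic neural progenitors, 1 for each genotype (CTL and *Stat3* cKO) at each of the stages E11 and E14. Progenitors were isolated from dissected embryonic brains and lysed after 3 days of suspension culture. In the cKO, Cre driven by a rat Nestin promoter and enhancer removes the *Stat3* exons that encode the SH2 domain, by which STAT3 docks on receptors and dimerises. Nestin-Cre acts mainly in neural progenitors and their progeny, and the deletion is described for E14 rather than for E11. The labels and the sequencing methods call the control wild type, whereas the animal methods describe controls that carry Nestin-Cre and 1 floxed *Stat3* allele, so that the Cre status of the CTL library cannot be settled here. The number of embryos in each library is not given in the sources used here. There were no replicates, so a difference has no replicate error beside it and no test was possible. Higher and lower below mean in the library labelled *Stat3* cKO relative to E11 CTL, on the plain FPKM ratio, and the library labelled E11 *Stat3* cKO is called the cKO library.

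STAT3 is activated by cytokines that signal through the shared receptor gp130, such as leukaemia inhibitory factor, and in the developing brain it is best known for promoting astrocyte differentiation and the upkeep of progenitors. The integrated stress response is a separate pathway. Kinases that sense amino acid shortage, unfolded protein, haem loss or double-stranded RNA phosphorylate the initiation factor eIF2, general translation falls, and the transcription factor ATF4 is translated and switches on genes of amino acid uptake and synthesis, tRNA charging and, when the stress lasts, cell death. Cholesterol synthesis is controlled by SREBP2, a transcription factor held in the endoplasmic reticulum by INSIG proteins while sterol is plentiful and released when sterol is scarce.

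The median log2 ratio of all genes was 0.059, and 7677 genes (61.8%) had a ratio above 1. At least 1.5-fold higher were 271 genes (2.18%) and at least 1.5-fold lower 455 (3.66%). At least 2-fold higher were 26 genes (0.209%) and at least 2-fold lower 139 (1.12%). Every count of list members below is to be read against these shares. FPKM values carry no counts, so the number of fragments behind a value is unknown. The depth of the library labelled *Stat3* cKO was estimated at 0.771 times that of CTL. This came from the most common ratio among 1095 entries above 0 and below 0.05 FPKM in both E11 libraries. The estimate takes most of these values to rest on 1 fragment, which cannot be checked here. The values summed to 948738 in CTL and 806587 in the cKO library, and scaling both to the same sum would add 0.234 to every log2 ratio. At least 2-fold higher would then be 89 genes and at least 2-fold lower 79, so that the balance depends on the scaling. For some lists, a median or a count is therefore also given relative to the median of all genes, which no scaling changes. The other list medians are on the plain ratio and would move with the scaling. The log2 ratios of all genes had a standard deviation (SD) of 0.337. Low genes leaned downwards, with a median log2 ratio of -0.29 over the 278 genes below 1 FPKM at E11 and of 0.10 over the 719 genes of at least 100 FPKM, and 82 of the 139 genes lower by 2-fold had an E11 mean below 5 FPKM. Fewer entries were listed at 0 in CTL (330) than in the cKO library (1039).

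**Figure D1:**
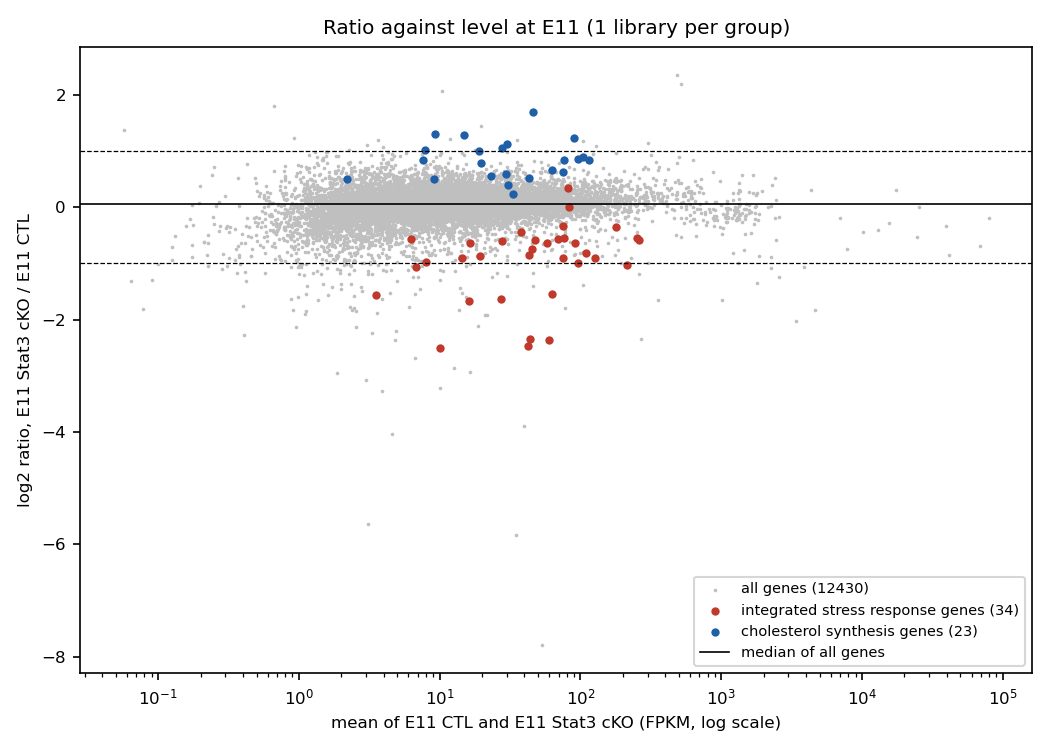
Each point is 1 gene, with the mean of the E11 libraries in FPKM (log scale) on the horizontal axis and the log2 ratio of E11 *Stat3* cKO to E11 CTL on the vertical axis. The 34 integrated stress response genes (red) lie mostly below the line of the median of all genes (0.059) and the 23 cholesterol genes (blue) all above it, and dashed lines mark 2-fold.

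*Stat3* is listed on chromosome 11 from 100748123 to 100800825. Its ratio at E11 was 0.911, against 0.346 at E14, where CTL had 27.6 FPKM and *Stat3* cKO 9.55. Most exons of the gene remain after the deletion, and a value for the whole gene is therefore only a partial check of the label. With both libraries scaled to the same sum, its log2 ratio at E11 was 0.099 in place of -0.14. At E11 this check did not separate the libraries, and each direction given here rests on the label alone. *Xist*, the RNA that coats the inactive X chromosome of females, had 46.9 FPKM in CTL and 39.7 in the cKO library. The Y-linked genes *Ddx3y*, *Kdm5d*, *Eif2s3y* and *Uty* were at 0 in both E11 libraries. The E11 libraries were thus alike in their sex-linked genes.

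Cell type markers were read next. Both E11 libraries held neural progenitor and neuron markers. The stem cell factor *Sox2* had 128 FPKM in CTL and 138 in the cKO library, the patterning factor *Pax6* 44.2 and 48.6, and the neuronal tubulin *Tubb3* 463 and 510.5. Both libraries also held mesenchymal markers at levels not seen at E14. *Col3a1*, which encodes a fibrillar collagen, had 674 FPKM in CTL and 586 in the cKO library, against 7.64 and 4.29 at E14. *Twist1*, a transcription factor of mesoderm and neural crest, had 42 and 35.2, against 0.450 and 0.0353 at E14. The summed level of the 31 analysed genes for mesenchyme, meninges and neural crest was 1997 FPKM in CTL and 1785 in the cKO library, and 61.1 and 67.9 at E14. Transcripts of mesenchymal cells were thus present in both E11 libraries, and whether Cre acts in such cells was not tested. In bulk RNA, fewer cells of a type and less RNA per cell cannot be told apart.

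**Figure D2:**
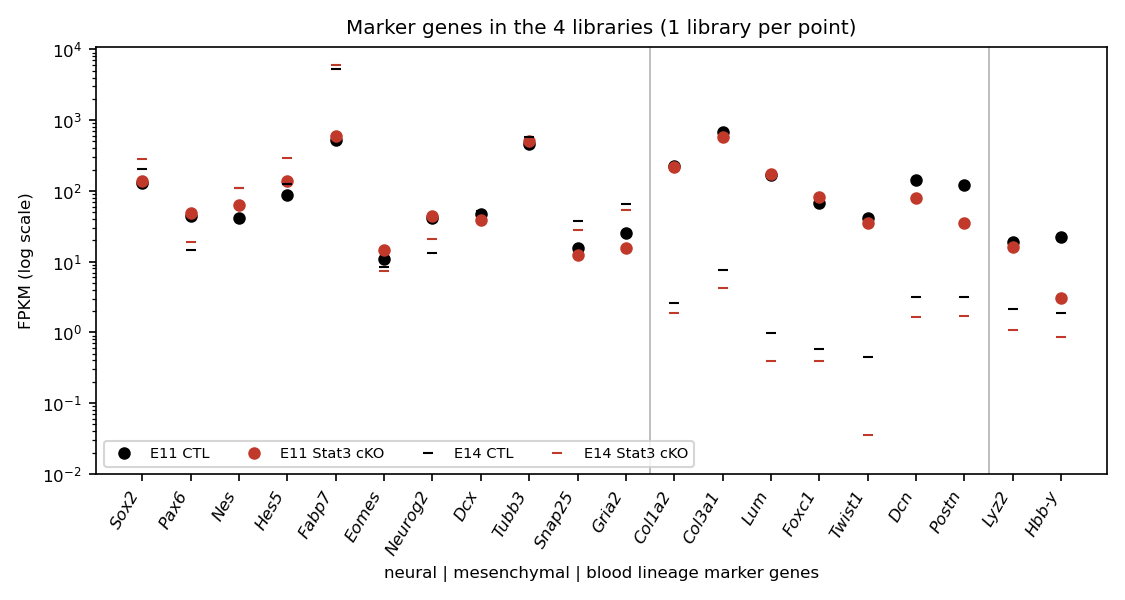
Level in FPKM (log scale) of marker genes in each of the 4 libraries, with E11 as circles, E14 as dashes, CTL in black and *Stat3* cKO in red. *Sox2*, *Pax6* and *Tubb3* were found at both stages, whereas *Col3a1*, *Lum* and *Foxc1* were high in both E11 libraries and low in both E14 libraries, and *Postn* and *Hbb-y* were lower in E11 *Stat3* cKO than in E11 CTL.

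Markers of other cell types did not all lean the same way. Of 24 microglia and leukocyte genes, 8 were analysed, 1 had a ratio above 1, and their sum was 66.6 FPKM in CTL and 57.0 in the cKO library. The defining microglial genes *Aif1* (0.512 and 0.292) and *Csf1r* (0.538 and 0.472) were below 1 FPKM in both libraries. The embryonic globin gene *Hbb-y* had 22.4 FPKM in CTL and 3.07 in the cKO library, a ratio of 0.137, and the joined entry for the alpha globins *Hba-a1* and *Hba-a2* was also lower (3.28 and 0.424 FPKM). The erythroid gene *Alas2* was below 1 FPKM in both. The other analysed gene of the erythroid list, the transferrin receptor gene *Tfrc*, which dividing cells also express, was higher (38.2 and 66.5). The endothelial genes *Pecam1* (0.377 and 0.380) and *Cldn5* (0.511 and 0.567) were below 1 FPKM in both. Of 23 endothelial genes, 3 were analysed, with a sum of 26.1 FPKM in CTL and 35.5 in the cKO library, and *Ramp2*, the most expressed, was higher (16.4 and 26.1). No gene of the epithelial list or of the HOX clusters, which pattern the hindbrain and spinal cord, reached the minimum to be analysed. The part of these cells in the results below was not tested.

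The genes with the highest and lowest ratios were taken among single genes with an E11 mean of at least 5 FPKM. Among the 15 highest, 7 were of the cholesterol list. *Idi1*, which makes the isoprenoid building block dimethylallyl diphosphate, had 21.7 FPKM in CTL and 70.5 in the cKO library (3.25-fold). The sterol carrier gene *Stard4* was at 5.34 and 13.2, and *Insig1*, which encodes the sterol-dependent anchor of SREBP, at 53.5 and 125. The pathway enzymes *Lss* and *Hsd17b7* had ratios of 2.08 and 2.03. *Aacs*, which turns acetoacetate into a precursor of lipid synthesis, was at 11.8 and 23.7.

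The other high ratios were of mixed kind. *S100a4*, a calcium-binding protein gene of motile and mesenchymal cells, had 3.94 FPKM in CTL and 16.7 in the cKO library (4.23-fold), and its relative *S100a6* had 82.1 and 174 (2.12-fold). *S100a6* was the one of the pair with a like ratio at E14 (2.09). The retinoic acid binding protein gene *Crabp1* had 187 and 412, against 5.90 and 5.82 at E14. *Itgbl1*, an integrin-like secreted protein gene, had 10.6 and 28.9, and was below 1 FPKM at E14. The remaining high ratios were of the histone genes *Hist1h3d*, *Hist1h3b* and *Hist1h2an*, which are set apart below.

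Of the 15 lowest ratios, 4 were of the stress response list. *Cebpb*, a transcription factor of stress and inflammation that is also listed as a STAT3 target, had 17.1 FPKM in CTL and 3.02 in the cKO library, a ratio of 0.176. *Nupr1*, a stress-induced chromatin protein gene, was at 71.4 and 12.9, *Atf5*, a transcription factor induced through eIF2 phosphorylation, at 99.8 and 19.4, and *Slc7a3*, a transporter of cationic amino acids, at 72.8 and 14.4. *Aldh1l2*, the mitochondrial enzyme that oxidises formyl-tetrahydrofolate, had 34.4 and 9.14, and *Cyb5r1*, a reductase gene, 33.3 and 8.83. Among extracellular products, *Ogn*, a small proteoglycan gene, was at 28.8 and 3.77, and *Fibin*, a secreted protein gene, at 30.4 and 7.03. Both were below 1 FPKM in both E14 libraries. *Trim66* was at 11.6 and 1.80.

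Some of the largest ratios came from entries whose values stood apart from their neighbours. *Fam65a* had 68.3 FPKM in E11 CTL and 1.19, 1.05 and 1.04 in the other 3 libraries. The ribosomal protein gene *Rpl13a*, whose introns hold small nucleolar RNAs, had 5475 in E11 CTL and 1349 in E11 *Stat3* cKO, and 2003 and 7361 at E14, while the other genes of its family lay within a narrow range. *Hist1h2ba* stood apart too, with 105 and 0.475, as did *Hist1h2ad* (74.4 and 4.98) and *Hist1h2br* (18.3 and 1.96), which were lower next to *Hist1h3d* (159.7 and 813) and *Hist1h3b* (186 and 855), which were higher. Over 63 Hist entries the SD of the log2 ratio was 1.32, against 0.337 over all genes. Many replication-dependent histone genes are near-identical copies whose reads can be assigned to either copy, and their single ratios are uncertain. Whether this holds for *Hist1h2ba* and each other entry named here was not tested.

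Among entries at 0 in one E11 library, *Rn45s*, the ribosomal RNA precursor, was at 0 in CTL and 7780 FPKM in the cKO library, *Ralgds* at 0 and 30.9 and *Mir466i* at 0 and 18.7. In the other direction, *Snord83b* was at 42733 and 0, *Snord32a* at 5281 and 0 and *Mir344* at 1485 and 0. These zeros stand beside high values in other libraries and are given as listed. The 56 small RNA entries with a ratio had a median log2 ratio of -0.48, and they and the Hist entries made up 5 of the 26 genes higher and 14 of the 139 genes lower by 2-fold. Without them, 21 genes were higher and 125 lower.

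Integrated stress response genes had the lowest median of the lists with at least 12 genes with a ratio, -0.82 on the log2 scale and -0.88 relative to all genes. Of 34 genes with a ratio, 32 were below 1, 23 were lower by at least 1.5-fold, 10 were lower by at least 2-fold and none was higher by 1.5-fold. Their summed level was 2982 FPKM in CTL and 1784 in the cKO library, and 1327 and 1328 at E14. E11 CTL had the highest value of the 4 libraries for 28 of the 34 genes, against 16.4% of all genes. At E14, the median log2 ratio of the list was -0.24, and 11 genes were above 1.

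The transcription factors and regulators of the response had a median log2 ratio of -0.95 over 12 genes, with 8 lower by at least 1.5-fold. This was close to the -0.89 of the 6 amino acid transporters, and these roles were assigned after the values were seen. *Atf4*, the central factor of the response and its most expressed member, had 310.4 FPKM in CTL and 208 in the cKO library, a ratio of 0.671. *Ddit3*, which encodes the cell death factor CHOP, had 93.3 and 32.2 (0.345). *Trib3*, a pseudokinase gene that restrains ATF4, had 24.7 and 7.76 (0.314). These are genes on both sides of the response, its drivers and its brakes. *Ppp1r15a*, whose product GADD34 leads to the dephosphorylation of eIF2, had 9.22 and 4.41 (0.478). *Chac1*, which encodes a glutathione-degrading enzyme, had 57.2 and 38.3 (0.669), and *Sesn2*, a leucine sensor gene, 70.3 and 45.0 (0.641). *Ddit4*, an inhibitor of mTORC1 signalling that hypoxia also induces, was the exception, with 72.4 and 91.6 (1.26).

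All 6 amino acid transporters of the list were lower by at least 1.5-fold. *Slc7a5* and *Slc3a2*, which encode the light and heavy chains of the leucine transporter, had 127 and 64.3 FPKM and 165 and 88.5 FPKM. The cystine transporter gene *Slc7a11* had 140.1 and 80.0 (0.571). *Slc7a11* and *Slc7a3* were below 2 FPKM in both E14 libraries, so that most of their expression in the series lay at E11. Among the enzymes, 5 of 8 were lower by at least 1.5-fold. The asparagine synthetase gene *Asns* had 286 and 141 (0.491), the cysteine-producing enzyme gene *Cth* 41.1 and 13.3 (0.324), and *Pycr1*, the last step of proline synthesis, 10.7 and 5.39 (0.506). The phosphoserine aminotransferase gene *Psat1* (298 and 203) and *Phgdh*, the first enzyme of serine synthesis (200.1 and 157), differed less. Among secreted factors, *Gdf15*, a stress hormone gene, had 5.28 and 1.79, and *Stc2* 18.6 and 10.01. *Sqstm1*, an autophagy receptor gene, was level (82.9 and 83.5).

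**Figure D3:**
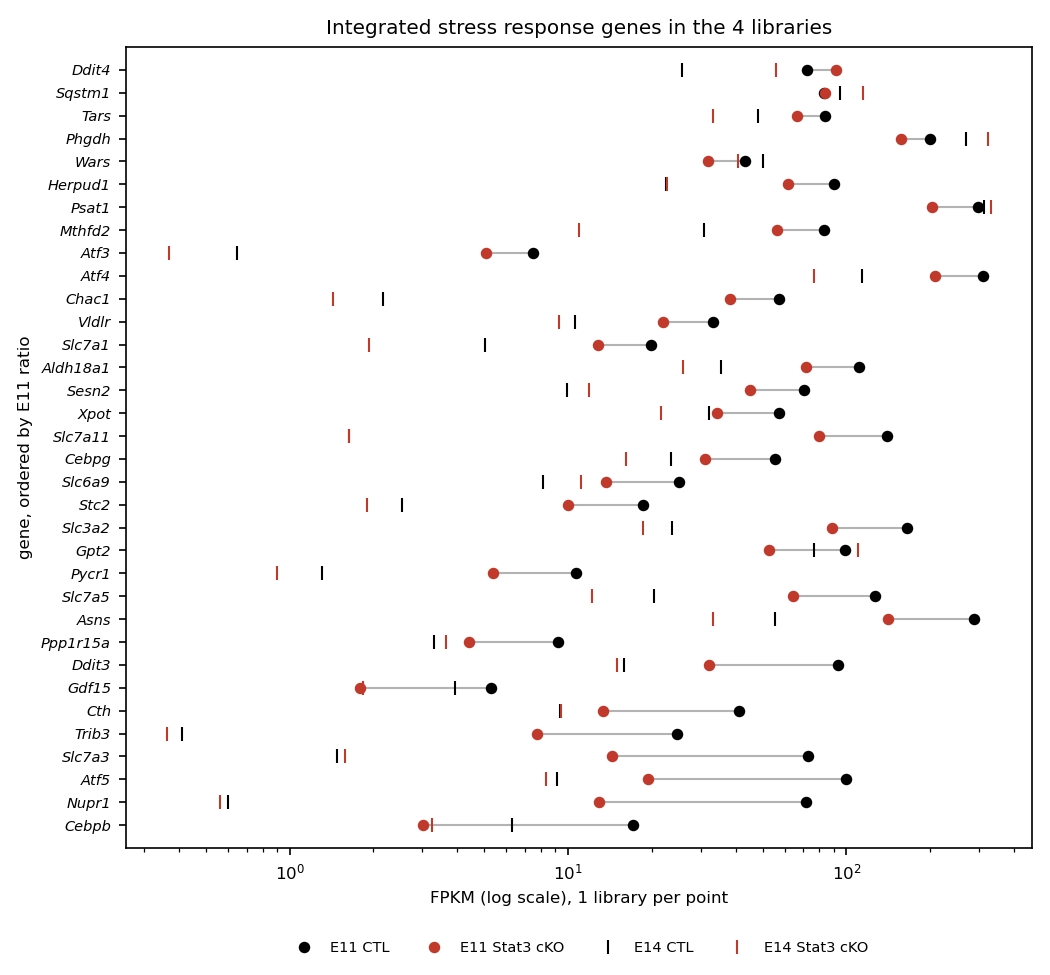
Level in FPKM (log scale) of the 34 integrated stress response genes in the 4 libraries, ordered by E11 ratio, with E11 CTL as black and E11 *Stat3* cKO as red circles joined by a line and E14 as ticks. The red circle lies to the left of the black one in 32 genes, with the widest gaps for *Cebpb*, *Nupr1*, *Atf5* and *Slc7a3*, and to the right for *Ddit4* and, slightly, *Sqstm1*.

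Lists that serve the same supply lines were lower in part, and *Cth*, *Mthfd2*, *Phgdh*, *Psat1*, *Tars* and *Wars* are members of both these and the stress response list. In serine synthesis and folate one-carbon metabolism, 11 of 26 genes had a ratio above 1. With both libraries scaled to the same sum 15 were above 1, so that the direction of this list depends on the scaling. Of the 26 genes, 5 were lower by at least 1.5-fold and 1 was higher. The lower ones were *Aldh1l2*, *Cth*, the phosphoserine phosphatase gene *Psph* (63.2 and 28.1), the neutral amino acid transporter gene *Slc1a4* (55.1 and 31.4) and *Shmt2*, the mitochondrial serine hydroxymethyltransferase (77.7 and 45.6). The split followed the cell compartment in some pairs, since cytosolic *Shmt1* (9.75 and 13.8) and *Mthfd1* (12.4 and 18.2) were higher while mitochondrial *Shmt2*, *Mthfd2* (83.0 and 56.2) and *Mthfd1l* (17.0 and 11.7) were lower. Of the aminoacyl-tRNA synthetases, which charge tRNAs, the 19 cytosolic genes had a median log2 ratio of -0.44 with 7 lower by at least 1.5-fold, and the 17 mitochondrial ones a median of 0.05 with none past 1.5-fold. The lowest were *Sars* (184 and 101), *Lars* (127 and 72.1) and *Eprs* (133 and 75.6). *Sars2* had the highest ratio (1.30).

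The arms of the unfolded protein response that do not run through eIF2 differed less. The 27 ER chaperone and XBP1-ATF6 genes had a median log2 ratio of 0.07, close to that of all genes, with 1 higher and 2 lower by at least 1.5-fold. Their extremes were *Sdf2l1* (6.55 and 12.2 FPKM), an ER chaperone cofactor gene, and *Atf6* (10.8 and 5.96). Cytosolic chaperone and heat shock genes had a median of 0.10. Of 28 p53 target genes, 12 were above 1, the lowest being *Gadd45a* (16.8 and 8.79), a growth arrest gene that ATF4 also induces, and the highest *Sesn3* (19.1 and 29.7). The p53 list had a median of -0.18, which becomes positive when both libraries are scaled to the same sum.

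The promoters of the stress response genes were searched for the letters TTGCATCA on either strand, the composite element to which ATF4 and C/EBP factors bind as a pair. In the 250 bases before the gene start (RefSeq, GRCm38.p6), 9 of 31 stress response genes with a promoter entry held it, against 0.918% of all 27025 genes. The genes were *Atf3*, *Chac1*, *Vldlr*, *Nupr1*, *Slc7a11*, *Pycr1*, *Fgf21*, *Herpud1* and *Tars*, of which *Fgf21* was below the minimum to be analysed. The other 8 were lower in the library labelled *Stat3* cKO, from 0.181 times CTL for *Nupr1* to 0.796 for *Tars*. Since 32 of the 34 analysed genes of the list were lower, this does not set the genes with these letters apart. The letters were chosen after the expression values were seen, and whether they go with the ratio was not tested. No cholesterol gene with a promoter entry (0 of 17) held these letters. Shown here are the promoters of 3 stress response genes with ratios of 0.181 (*Nupr1*), 0.506 (*Pycr1*) and 0.669 (*Chac1*), 5′ to 3′ on the gene's strand and ending at the base before the gene start, at chr7:126625471-126625720, chr11:120643749-120643998 and chr2:119350992-119351241 (minus, minus and plus strand). Capitals mark TTGCATCA or its reverse complement, which begins 110 bases before the gene start in *Nupr1*, 103 in *Pycr1* and 193 in *Chac1*.
Nupr1: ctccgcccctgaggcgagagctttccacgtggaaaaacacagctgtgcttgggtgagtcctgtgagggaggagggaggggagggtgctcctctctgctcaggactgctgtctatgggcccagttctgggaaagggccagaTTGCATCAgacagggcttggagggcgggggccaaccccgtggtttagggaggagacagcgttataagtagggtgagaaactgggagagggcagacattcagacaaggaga
Pycr1: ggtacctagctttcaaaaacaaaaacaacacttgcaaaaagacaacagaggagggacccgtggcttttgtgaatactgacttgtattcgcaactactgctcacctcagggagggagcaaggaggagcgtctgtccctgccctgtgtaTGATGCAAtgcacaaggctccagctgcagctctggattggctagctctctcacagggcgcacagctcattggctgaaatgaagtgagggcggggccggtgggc
Chac1: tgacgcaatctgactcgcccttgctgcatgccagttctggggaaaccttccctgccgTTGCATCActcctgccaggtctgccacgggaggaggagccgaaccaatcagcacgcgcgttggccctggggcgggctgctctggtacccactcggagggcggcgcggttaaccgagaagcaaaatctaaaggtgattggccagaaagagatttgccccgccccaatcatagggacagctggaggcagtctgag
A match is a description of letters and not evidence of binding in these cells.

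Cholesterol synthesis genes had the highest median of the lists, 0.84 on the log2 scale and 0.78 relative to all genes. All 23 genes had a ratio above 1, 17 were higher by at least 1.5-fold and 8 by at least 2-fold, so that this list supplied 8 of the 26 genes that were 2-fold higher. The summed level was 693 FPKM in CTL and 1249.9 in the cKO library. At E14 it was 2191 and 1632, with a median log2 ratio of -0.42 and 1 gene above 1, against 39.9% of all genes. E11 CTL had the lowest value of the 4 libraries for 22 of the 23 genes, against 35% of all genes.

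The 18 pathway enzymes analysed were all higher. Of the early steps, *Acat2*, which joins acetyl groups, was at 73.1 and 136 FPKM. *Mvk*, the mevalonate kinase gene, was at 14.4 and 24.9, whereas the next kinase, *Pmvk*, had the lowest ratio of the list (30.6 and 36.1, 1.18-fold). *Fdps*, which makes farnesyl diphosphate and was the most expressed member in CTL, had 82.3 and 147 (1.79-fold). After the branch to sterols, *Fdft1* and *Sqle*, the squalene synthase and epoxidase genes, had ratios of 1.44 and 1.58, and *Lss*, which closes the sterol rings, had 17.9 and 37.3 (2.08-fold). The late enzymes *Cyp51*, *Nsdhl* and *Dhcr7* had ratios of 1.55, 2.004 and 1.79. *Srebf2*, which encodes SREBP2 itself, differed less (26.5 and 34.8, 1.31-fold). Over the 18 enzymes the median log2 ratio was 0.84, and over the 5 uptake and regulator genes it was 1.23.

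Fatty acid synthesis genes were higher as well, with a median log2 ratio of 0.44. All 15 had a ratio above 1 and 6 were higher by at least 1.5-fold. These were the desaturase genes *Scd1* (20.2 and 39.8 FPKM), *Scd2* (231 and 369) and *Fads2* (69.5 and 111), the fatty acid synthase gene *Fasn* (28.4 and 47.7), the elongase gene *Elovl6* (17.4 and 29.0) and *Acsl4* (6.15 and 10.1). *Acly*, which makes cytosolic acetyl-CoA, had 101 and 140.0, and *Gpam*, of triglyceride synthesis, the lowest ratio (1.02). For the genes of fatty acid breakdown the median was 0.10, with none of 24 past 1.5-fold in either direction. At E14 the fatty acid synthesis list had a median of -0.10.

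**Figure D4:**
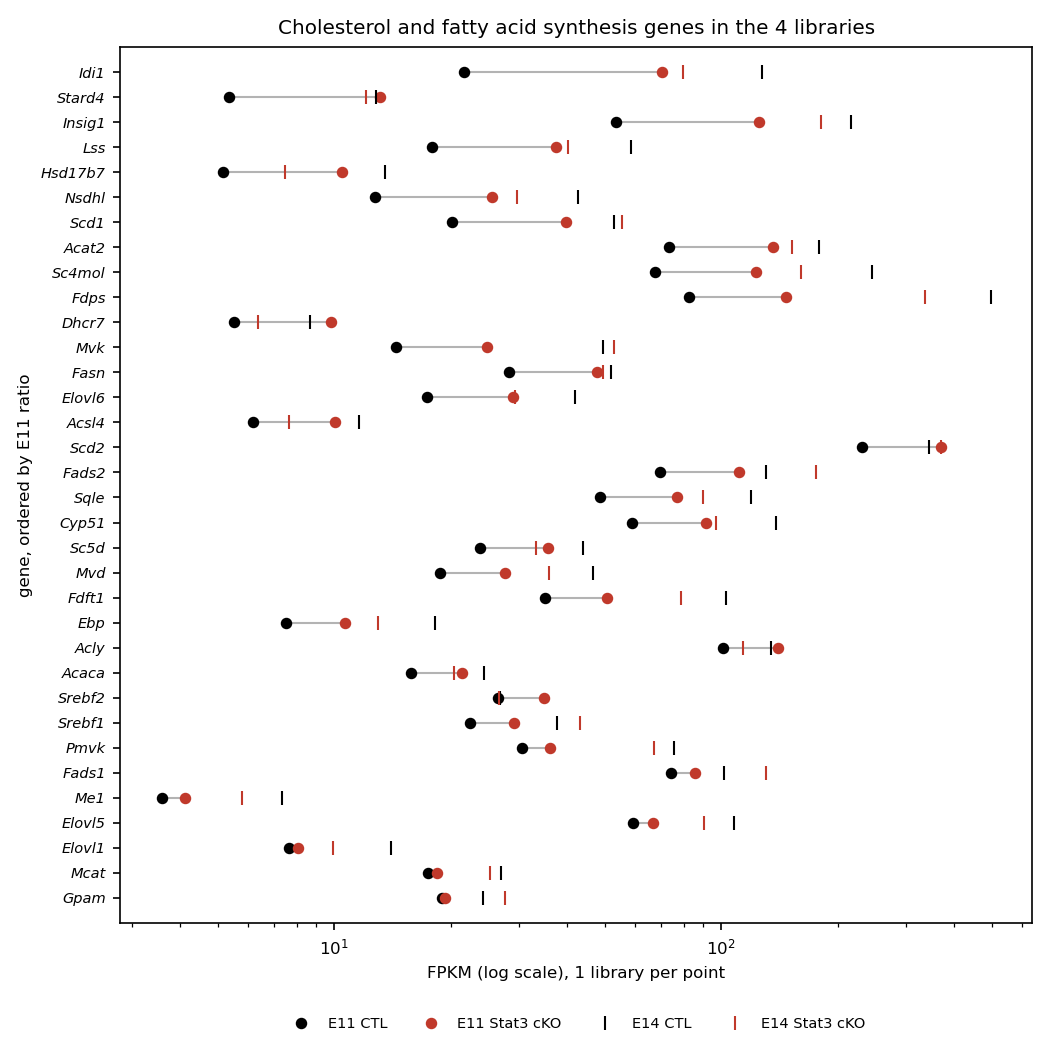
Level in FPKM (log scale) of cholesterol and fatty acid synthesis genes in the 4 libraries, without a few that are not reported singly here, ordered by E11 ratio, with E11 CTL as black and E11 *Stat3* cKO as red circles joined by a line and E14 as ticks. The red circle lies to the right of the black one in every gene shown, from *Gpam* (1.02-fold) to *Idi1* (3.25-fold), and most black ticks of E14 CTL lie further right.

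The CCAAT box, to which NF-Y binds and beside which SREBP sites often lie, was searched as CCAAT on either strand of the same 250 bases. It was found in 16 of the 17 cholesterol genes with a promoter entry, in 17 of 31 stress response genes and in 37.5% of all genes. The core letters TCACNCCAC of a sterol element were found in 1 of the 17 (*Hmgcs1*, whose expression was not analysed here) and in 1.22% of all genes. Promoters of 3 cholesterol genes are shown, those of *Idi1*, the highest ratio of the list, and of *Lss* and *Nsdhl*, each about 2-fold higher. They lie at chr13:8885356-8885605, chr10:76531355-76531604 and chrX:72918271-72918520 of GRCm38.p6, all on the plus strand, with CCAAT or its reverse complement in capitals.
Idi1: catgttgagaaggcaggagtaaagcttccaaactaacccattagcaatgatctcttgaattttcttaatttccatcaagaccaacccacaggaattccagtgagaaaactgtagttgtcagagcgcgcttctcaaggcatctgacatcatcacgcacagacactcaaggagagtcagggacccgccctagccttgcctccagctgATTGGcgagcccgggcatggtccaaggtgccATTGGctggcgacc
Lss: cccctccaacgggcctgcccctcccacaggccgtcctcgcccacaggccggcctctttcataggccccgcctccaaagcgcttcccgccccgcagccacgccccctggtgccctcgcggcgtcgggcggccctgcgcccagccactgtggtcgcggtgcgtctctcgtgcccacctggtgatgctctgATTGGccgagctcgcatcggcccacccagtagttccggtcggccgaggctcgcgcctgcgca
Nsdhl: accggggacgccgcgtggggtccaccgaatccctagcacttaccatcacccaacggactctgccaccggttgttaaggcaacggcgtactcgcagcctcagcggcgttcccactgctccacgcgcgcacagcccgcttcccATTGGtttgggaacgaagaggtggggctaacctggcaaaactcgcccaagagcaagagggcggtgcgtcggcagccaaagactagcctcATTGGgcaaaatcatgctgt
These letters occur 2 times in *Idi1* and *Nsdhl* and 1 time in *Lss*.

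Genes of cell division were higher. All 51 G2 and mitosis genes had a ratio above 1, with a median log2 ratio of 0.53 and 17 higher by at least 1.5-fold. No gene of this list was 2-fold higher. The spindle checkpoint gene *Mad2l1* had the highest ratio (19.7 and 33.9 FPKM), and its partner *Bub3* the lowest (76.7 and 79.2). *Top2a*, the DNA topoisomerase of dividing cells and the most expressed member, had 105 and 154, the cyclin gene *Ccna2* 60.6 and 95.4, and *Cdc20*, an activator of the anaphase-promoting complex, 43.3 and 68.0. E11 CTL was the lowest of the 4 libraries for 47 of the 51 genes. At E14 the median was -0.04, with 24 genes above 1.

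DNA replication genes differed by less. Of 47, 45 had a ratio above 1, with a median log2 ratio of 0.30, and 5 were higher by at least 1.5-fold. These were the nuclease and helicase gene *Dna2* (3.11 and 5.45 FPKM), *Orc1*, *Pole2*, *Clspn* and *Lig1*. The sliding clamp gene *Pcna*, the most expressed, had 187 and 249, the helicase subunit gene *Mcm4* 24.8 and 34.8, and *Orc3* the lowest ratio (0.905). At E14, none of the 47 was above 1, and the median was -0.66. The direction of this list was opposite at the 2 stages, and the difference between stages was not tested.

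Among G1 regulators, 26 of 28 had a ratio above 1, with a median log2 ratio of 0.26. The cyclin E genes *Ccne1* (9.50 and 14.8 FPKM) and *Ccne2* (4.95 and 8.38) and the transcription factor gene *E2f2* (2.81 and 5.11) were higher by at least 1.5-fold. The CDK inhibitor genes *Cdkn2b* (5.63 and 1.53) and *Cdkn1a* (9.70 and 6.53) were the 2 below 1, and *Cdkn2b* was lower by over 2-fold. *Cdkn1c*, an inhibitor that is imprinted and abundant at E11, had 289.8 and 347. *Ccnd1*, the cyclin D gene that is also listed as a STAT3 target, had 101 and 120.3, next to 210.1 and 34.2 at E14. Purine and pyrimidine synthesis genes had medians of 0.22 and 0.19, with 19 of 24 and 16 of 20 above 1, and genes of PRC2, DNA methylation and TET enzymes a median of 0.15, with *Uhrf1* the highest (33.4 and 59.3).

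Glycolysis genes had a median log2 ratio of 0.35, and 23 of 26 had a ratio above 1. The enolase gene *Eno1* (83.4 and 161 FPKM), the lactate dehydrogenase gene *Ldha* (212 and 340.2) and the liver-type phosphofructokinase gene *Pfkl* (30.6 and 47.5) were higher by at least 1.5-fold. The pyruvate kinase gene *Pkm*, the most expressed, had 493 and 623. Isoforms parted, since the platelet-type phosphofructokinase *Pfkp* (20.7 and 10.04) and the neuronal enolase *Eno2* (13.1 and 9.43) were lower. Hypoxia response genes, which share *Ldha*, *Pgk1* and other glycolysis members, had a median of 0.24 with 24 of 29 above 1. Of this list, *Ldha* was higher and *Ndrg1* (2.26 and 1.38) and *P4ha2* (13.1 and 8.43) were lower by at least 1.5-fold, and *Vegfa*, also among the 5 below 1, was at 77.6 and 55.5.

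Mitochondrial lists differed little from all genes, and no gene of complex I, of complexes II to V, of the TCA cycle or of the mitochondrial ribosome passed 1.5-fold. Of 28 mitochondrial import and chaperone genes (median log2 ratio 0.056), 1 was lower by at least 1.5-fold, the most expressed of that list. The 37 complex I genes had a median log2 ratio of 0.05, from *Ndufv1* (71.2 and 64.8 FPKM) to *Ndufs6* (55.4 and 70.6). The 43 genes of complexes II, III, IV and the ATP synthase had a median of 0.14, and their most expressed member, *Atp5b*, had 586 and 654. The TCA cycle list had a median of 0.17, with 23 of 26 above 1 and *Idh1* the highest (146 and 211). The 74 genes for mitochondrial ribosomal proteins had a median of 0.11, from *Mrpl24* (0.861) to *Mrpl12* (1.39). Of the 37 complex I genes, 29 had a ratio above 1, 17 were higher relative to the median ratio of all genes, 15 with upper-quartile scaling and 37 with both libraries scaled to the same sum.

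The proteasome and the ribosome lay on opposite sides of the median. All 31 proteasome subunit genes had a ratio above 1, from *Psmd4* (1.01) to *Psmd7* (1.35), with a median log2 ratio of 0.15 that is small in size. Of 79 cytosolic ribosomal protein genes 17 were above 1, with a median of -0.11, and *Rps16* had the highest ratio (529 and 639 FPKM). With *Rpl13a* aside, their lowest ratio was that of *Rpl39* (0.813). With both libraries scaled to the same sum, 71 of the 79 were above 1, so that the direction of the ribosomal list depends on the scaling. Ribosome biogenesis genes had a median of 0.14, with 29 of 34 above 1.

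**Figure D5:**
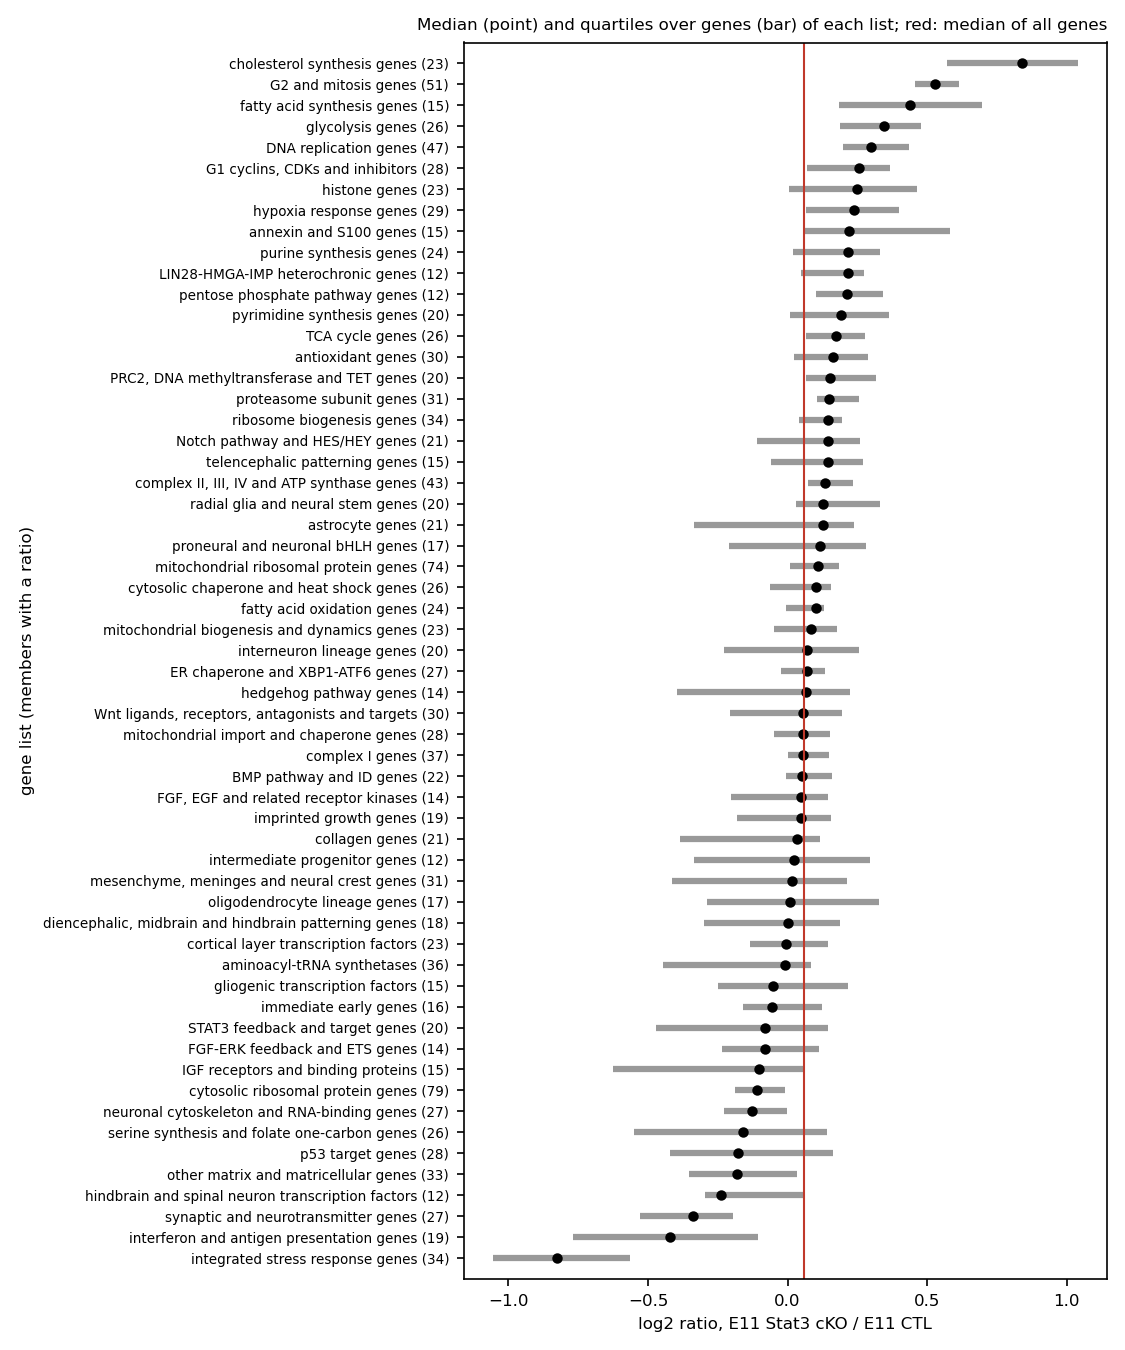
Median log2 ratio of E11 *Stat3* cKO to E11 CTL (points) and quartiles over genes (bars) of each gene list with at least 12 genes with a ratio, the number of which follows the name, with the median of all genes (0.059) as a red line. Cholesterol synthesis (0.84), G2 and mitosis (0.53) and fatty acid synthesis (0.44) stand at the top and integrated stress response (-0.82), interferon (-0.42) and synaptic genes (-0.34) at the bottom, and most other lists lie near the line.

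Progenitor genes lay close to the median of all genes. Of 20 radial glia and neural stem genes, 16 had a ratio above 1, with a median log2 ratio of 0.13, and 3 were higher by at least 1.5-fold. Relative to the median ratio of all genes, 13 of the 20 were higher, and with upper-quartile scaling 12 were. *Nes*, the intermediate filament that defines neural progenitors, had 41.2 and 63.4 FPKM (1.54-fold), the Notch effector *Hes5* 88.5 and 137 (1.55-fold), and *Sox3*, a SOXB1 factor, 6.98 and 11.7 (1.67-fold). *Hopx*, a radial glia marker, was lower (13.3 and 8.68), as was *Hes1* (34.6 and 28.7), so that the HES genes went apart. *Vim*, the most expressed member, had 582 and 609. Of the Notch and HES/HEY list, 13 of 21 were above 1, and *Hes5* was the one past 1.5-fold. The intermediate progenitor list had no common direction, with a median of 0.02. *Eomes*, the defining factor of these cells, was at 10.7 and 14.8, and *Sstr2* at 4.97 and 2.98.

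Neuronal genes leaned downwards, more in synaptic than in cytoskeletal genes. Of 27 synaptic and neurotransmitter genes, 23 had a ratio below 1, with a median log2 ratio of -0.34, and 5 were lower by at least 1.5-fold. The AMPA receptor gene *Gria2* had 25.6 and 15.6 FPKM (0.609), the secretogranin gene *Scg2* 17.7 and 11.2 (0.629), and *Gabra2*, a GABA receptor subunit gene with the lowest ratio, 1.23 and 0.696 (0.567). *Slc17a6*, the vesicular glutamate transporter gene, was at 23.9 and 18.1, while *Slc32a1*, the vesicular GABA transporter gene, was at 5.58 and 6.27. With both libraries scaled to the same sum, 8 of the 27 were above 1, so that this direction did not depend on the scaling. The 27 neuronal cytoskeleton and RNA-binding genes had a median of -0.13, from the splicing factor gene *Rbfox1* (5.53 and 2.95) to *Tubb3* (1.10), and 20 of them were above 1 when both libraries were scaled to the same sum.

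Lineage factors of single neuron classes differed in both directions. Of 17 proneural and neuronal bHLH genes, 12 had a ratio above 1, with a median log2 ratio of 0.12, and 1 was higher and 3 lower by at least 1.5-fold. *Neurod6*, a factor of maturing cortical neurons, was lower by over 2-fold (8.14 and 3.76 FPKM), *Neurod2* was at 3.95 and 2.21, and *Neurog2*, which starts cortical neurogenesis, at 40.8 and 43.8. In the interneuron list, 11 of 20 genes were above 1, with a median log2 ratio of 0.07. *Lhx8* (8.11 and 1.58) and *Lhx6* (1.67 and 0.572), LIM factors of this list, were lower by over 2-fold. *Gsx2*, of ventral forebrain progenitors, was higher (4.37 and 6.93). Both E11 libraries also held mesenchymal transcripts, and which cells the *Lhx8* and *Lhx6* transcripts came from was not tested. Layer factors of the cortex had a median log2 ratio of -0.01, with *Pou3f1* the highest (8.41 and 10.8). The oligodendrocyte lineage list had no common direction, with 9 of its 17 genes above 1, 2 higher and 3 lower by at least 1.5-fold, and the factor *Olig1* the highest (1.64 and 2.85). The astrocyte list had a median of 0.13, from *Slco1c1* (0.0907 and 0.0367) to *Clu* (2.17 and 3.38). Within that list, *Sparcl1*, a secreted matricellular gene, was lower by over 2-fold (78.1 and 37.8).

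Mesenchymal genes as a list had no common direction, but single members differed. Of 31 genes, 16 had a ratio above 1 and the median log2 ratio was 0.02, with 6 lower by at least 1.5-fold and none higher. The lowest were *Barx1*, a homeobox factor of the facial mesenchyme (5.49 and 1.17 FPKM), the matricellular gene *Postn* (120.1 and 34.7), *Slc6a13*, a GABA and taurine transporter of the meninges (18.5 and 9.92), and the proteoglycan gene *Dcn* (141 and 78.8). The frontonasal and meningeal factors *Alx4* (16.1 and 23.2), *Foxc2* (9.23 and 13.04) and *Foxc1* (67.1 and 80.6) were on the other side. Collagen genes *Col1a1* (63.6 and 68.9) and *Col1a2* (227 and 215) were close to level. Among collagens, *Col8a1* was lower (7.06 and 0.728) and *Col23a1* higher (8.38 and 14.5), with a median of 0.03 over 21 genes. The matrix list had a median of -0.18, with *Fbln5* (3.54 and 1.03) and the metalloproteinase inhibitor gene *Timp3* (17.6 and 8.01) lower by over 2-fold and *Fbln2* (15.4 and 23.9) the highest, and 19 of its 33 genes were above 1 when both libraries were scaled to the same sum. Of 15 annexin and S100 genes, 12 were above 1, and the lowest was *Anxa3* (7.09 and 2.85).

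Interferon and antigen presentation genes were lower. Of 19 with a ratio, 15 were below 1, with a median log2 ratio of -0.42, and 7 were lower by at least 1.5-fold. With both libraries scaled to the same sum, 8 of the 19 were above 1. Relative to all genes the median was -0.48, and -0.31 with a minimum mean of 5 FPKM. The restriction factor gene *Bst2* had 42.2 and 18.2 FPKM (0.431), the membrane restriction factor *Ifitm3* 31.7 and 17.7 (0.557), its neighbour *Ifitm1* 20.1 and 10.9 (0.545), and the ubiquitin-like *Isg15* 3.01 and 1.66 (0.551). *Ifitm2*, the most expressed, was level (128 and 130.2), and the MHC class I light chain *B2m* was at 137 and 117. Of the factors that drive these genes, *Stat2* was at 3.80 and 5.11 and *Irf1* at 3.77 and 4.11. At E14 the list had a median of 0.06. The leukocyte genes, whose summed level is given above, were lower beside this list, and their part in it was not tested.

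The genes of the STAT3 pathway itself differed little. The 8 STAT and JAK genes had a median log2 ratio of 0.04 and none passed 1.5-fold, with *Jak1*, the most expressed kinase, at 19.2 and 19.7 FPKM. Among gp130 receptors and ligands, *Il6st*, which encodes gp130, was at 44.9 and 39.4, and the LIF receptor gene *Lifr* at 10.6 and 13.4. Of 20 feedback and target genes, 9 were above 1, and the median was -0.08. With both libraries scaled to the same sum, 13 of the 20 were above 1, so that the direction of this list depends on the scaling. The feedback inhibitor gene *Socs3*, the best known direct target, was at 4.15 and 3.82 (0.922). *Cebpb* and the adhesion gene *Icam1* (2.69 and 1.20) were lower by over 2-fold, and *Birc5*, the survivin gene and also a mitosis gene, was higher (28.1 and 45.2). The palindrome TTCNNNGAA to which STAT dimers bind, the same on both strands, was found in the 250 bases before the start of 3 of the 20 feedback and target genes with a promoter entry (*Socs3*, *Icam1* and *Fgl2*), of 4 of 31 stress response genes and of 8.13% of all genes. Of the promoters matched for the highest ratios, 0 of 9 held it, and of those for the lowest ratios, 2 of 9 (*Hbb-y* and *Nupr1*).

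Growth factor and patterning pathways showed single genes rather than common directions. In the insulin-like growth factor list, 11 of 15 genes were below 1, with the binding protein gene *Igfbp3* (9.43 and 2.74 FPKM) the lowest and the ligand gene *Igf1* at 18.0 and 9.93. With both libraries scaled to the same sum, 8 of the 15 were above 1, so that the direction of this list depends on the scaling. In the Wnt list, the antagonist genes *Dkk2* (33.1 and 14.0) and *Wif1* (3.06 and 1.51) were lower by over 2-fold and the ligand gene *Wnt5b* was higher (5.91 and 9.57), around a median log2 ratio of 0.06. No gene of the BMP and ID list (22 genes, median 0.05) or of the FGF-ERK feedback and ETS list (14 genes, median -0.08) passed 1.5-fold. The heterochronic LIN28, HMGA and IMP genes, which mark early progenitors, had a median of 0.22, with *Lin28b* the highest (3.48 and 4.58). Antioxidant genes had a median of 0.16, from *Slc7a11* (0.571) to *Nqo1* (3.24 and 5.85), a quinone reductase gene.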

How the data were processed

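Neural progenitor RNA was sequenced in 4 libraries. The authors checked reads with FastQC, aligned them with TopHat, estimated transcript levels with Cufflinks and deposited 1 table of FPKM values per library. The submitters' processing notes also name Bowtie 0.12.2 and the mouse builds mm8 and mm9, with no role. Which build the listed positions follow, the strand setting and any scaling beyond FPKM are not given in the sources used here, so *Stat3* is placed as listed. FPKM divides by transcript length and mapped fragments, so that a few very abundant entries can shift all others.

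Rows were matched on symbol and position. Values were taken as deposited, with a mean of 1 FPKM across the 4 libraries as the minimum, no pseudocount, and no ratio where either value was 0. Entries that join several symbols (140) stayed in the counts over all genes and out of the lists. Genes were counted past 1.5-fold and 2-fold, and 70 lists (1798 symbols, 1727 with a row of their own) were summarised by counts and medians. The gene set, the lists and the motifs were chosen with earlier results of these data known, and the roles within lists and the motifs other than TTCNNNGAA after these values were seen. Named singly were *Stat3* and the sex-linked genes, the 15 highest and 15 lowest ratios among single genes other than small RNAs with an E11 mean of 5 FPKM or more, list members beside their list's counts, and the 3 highest entries each way with a 0 in one E11 library. *Hmgcs1* and *Fgf21* are named for their promoters. A few genes that this rule or a list would name are not reported singly here, and remain in the counts and medians. Promoters are RefSeq entries for GRCm38.p6, and genes without one were left out of the shares.

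The steps were tested on simulated data. Alternatives were pseudocounts of 0.1 and 1, 3 scalings, other minimums and folds, and leaving out small RNA and Hist entries. Python 3.11.15, numpy 2.4.6, pandas 2.3.3, scipy 1.17.1 and matplotlib 3.10.9 were used.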

Additional observations from a re-analysis of the deposited data

Results flagged for a closer look

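Lists whose medians at E11 and E14 lay on opposite sides of the median of all genes, each by at least 0.25 on the log2 scale, were picked out. The difference between the stages was not tested, since each rests on 1 library per genotype. Cholesterol synthesis genes had a median log2 ratio (cKO over CTL) of 0.84 at E11, with 23 of 23 genes above 1, and of -0.42 at E14, with 1 of 23 above 1. Hindbrain and spinal neuron transcription factors had a median of -0.24 at E11, with 4 of 12 genes above 1, and of 0.21 at E14, with 7 of 12 above 1. With both E11 libraries scaled to the same sum, 6 of these 12 genes were above 1 at E11. These factors are low genes at E14, where *Lhx9*, *Pou4f1* and *Lhx1* were below 1 FPKM in both libraries.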

How the results depend on the processing

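No paired analysis was possible because each group held 1 library, and no library could be left out. With a pseudocount of 1 FPKM, 81 genes were lower by 2-fold in place of 139, and the median log2 ratio of all genes was 0.052 in place of 0.059. That median was 0 by construction when set to 0, -0.010 with upper-quartile scaling, which turns its sign, and 0.29 with both libraries scaled to the same sum. Under that last scaling 89 genes were higher and 79 lower by 2-fold, so that the balance of higher and lower calls depends on the scaling. With a minimum mean of 5 FPKM, 64 genes were lower and the median was 0.078, and with no minimum 456 were higher and 1804 lower and the median was 0.0079. At 1.5-fold, 271 genes were higher and 455 lower, and at 3-fold 5 and 50. A scaling leaves a list's median relative to that of all genes as it is by construction. Under the other alternatives, 380 of 386 such values over 65 lists stayed within the 95% interval of the list's own median over genes. No list with an interval on one side of 0 changed sign. The interval describes the spread among the genes of a list, which are not replicates. It gives no error for the difference between the libraries, and staying within it is a weak check. STAT3 feedback and target genes, at -0.14, went to 0.009 with a minimum mean of 5 FPKM and still lay within it. The 6 values outside it came with no minimum, where the median of all genes is itself lower, and were 0.52 for G2 and mitosis, 0.093 for fatty acid oxidation, 0.046 for complex I, 0.10 for mitochondrial ribosomal protein, -0.12 for cytosolic ribosomal protein and 0.14 for ribosome biogenesis genes. Of 247 values of 31 named genes, 1 changed sign, that of *Stat3*, from -0.14 to 0.099 with both libraries scaled to the same sum. FPKM values without counts give no depth per gene, and at 1 library per group the spread between replicates, culture and litter cannot be told apart from genotype.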
